A study of Mus musculus with 30 samples.

Results

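Oxidative phosphorylation genes encoded in the nucleus were followed across tumours of 5 mouse melanoma clones, each grown with RAFi/MEKi and untreated. The members were all genes whose mouse symbol begins with Ndufa, Ndufb, Ndufc, Ndufs, Ndufv, Sdha, Sdhb, Sdhc, Sdhd, Uqcr, Cox4i, Cox5, Cox6, Cox7, Cox8 or Atp5, without the ending -ps, and with at least 10 counts summed over the 30 libraries. The rule found 97 members among 54532 features, and 91 of them passed the filter on low counts and were tested. They comprised 40 complex I genes, 8 complex I assembly factors, 4 complex II genes, 4 complex II assembly factors, 8 complex III genes, 16 complex IV genes and 17 ATP synthase genes. The assembly factors entered because their symbols begin with Ndufaf and Sdhaf. Complexes were assigned by symbol, so Ndufa4, named as a complex I subunit and since reassigned to complex IV, stands with complex I.

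The tumours came from YUMM1.7, a mouse melanoma cell line, and carried the strain label C57BL/6. The 10 groups were 2646TN, 2646R, 14559TN, 14559R and 13TN, each RAFi/MEKi treated and untreated, with 3 tumours per group. The titles of the 13TN samples carry the word Depleted1. TN and R are not spelled out in the labels and are used here as names, and the agents and doses behind RAFi/MEKi are not given in the sources used here. Each group was a single clone, isolated by the CaTCH method and recognised in dissociated tumours by its green fluorescence. The p-values therefore rest on the spread between tumours within groups, shared over all 10 groups, and not on the spread between clones.

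Oxidative phosphorylation couples the oxidation of nutrients to ATP synthesis across the inner mitochondrial membrane. Complex I passes electrons from NADH, and complex II from succinate, to ubiquinone; complex III passes them to cytochrome c and complex IV to oxygen. The proton gradient built by complexes I, III and IV drives ATP synthase. Most subunits are encoded in the nucleus and imported, while a small core of all complexes except complex II is encoded by mitochondrial DNA. In melanoma, oxidative phosphorylation has been studied as a feature of cells that survive inhibition of the RAF and MEK kinases.

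Libraries held 3022801 to 5278453 counts, with a median of 4042893, from the 3′ ends of polyadenylated transcripts. Levels are given as CPM, counts scaled to library size with TMM factors, and they compare 1 gene between libraries, not genes with each other. The melanocytic markers Tyr, Tyrp1 and Dct were at 0 in every library, and the summed level of the 8 melanocytic markers ran from 13.6 to 92.1 CPM. These 3 pigment genes therefore do not mark the tumours as melanocytic, and the summed level came from the other markers of the list. Of the 13 fibroblast markers, 12 or 13 were detected in every group, with summed levels of 4351 to 23399 CPM. Because the material is bulk RNA of sorted cells, fewer cells of a type and less RNA per cell cannot be told apart.

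The first question was how each clone's oxidative phosphorylation genes differed between treated and untreated tumours. Of 91 tested members, 40 were called lower and 0 higher in treated 14559TN tumours, where 16% of all genes were called lower. In treated 13TN tumours 30 were called lower and 1 higher, where 17.4% of all genes were called lower. No member was called in 2646TN or 14559R, for which the counts at an unadjusted p are given with their values. Summed over all members, treated 14559TN tumours held 10543, 9695 and 9509 CPM, against 13392, 13287 and 13771 CPM in untreated ones. Treated 13TN tumours held 10793, 9560 and 10715 CPM, against 13326, 13323 and 14584 CPM in untreated ones. In both clones every treated tumour lay below every untreated tumour. The ratio of treated to untreated means was 0.735 in 14559TN and 0.753 in 13TN, against 1.03 in 2646TN, 1.01 in 2646R and 0.945 in 14559R. By complex, the ratio in 14559TN was 0.781 for complex I, 0.897 for complex II, 0.727 for complex III, 0.732 for complex IV and 0.654 for ATP synthase. In 13TN the same ratios were 0.841, 0.833, 0.711, 0.717 and 0.673. The libraries of the 8 groups other than treated 14559TN and treated 13TN held 12762 to 14931 CPM.

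**Figure D1:**
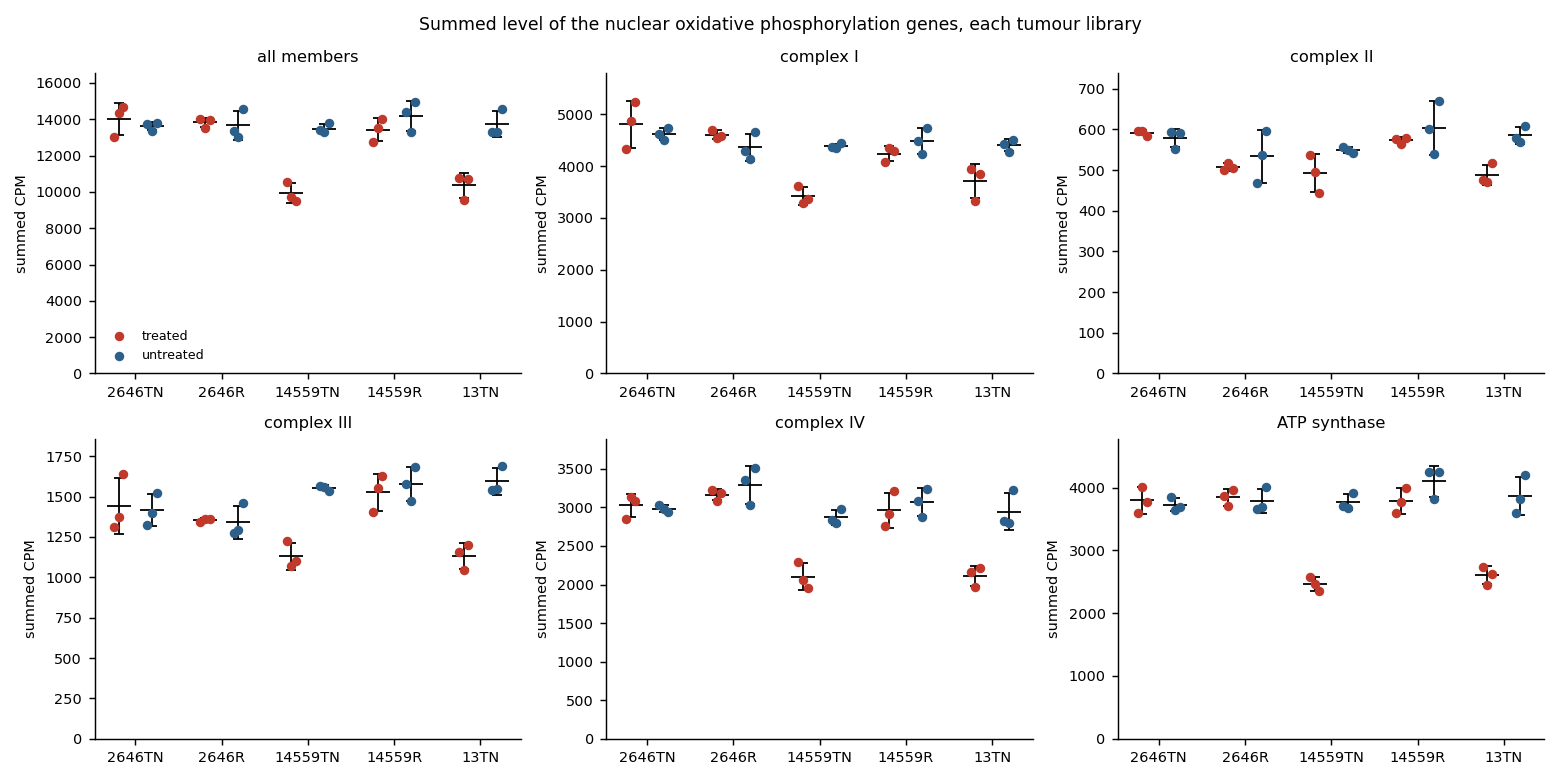
Summed level of all oxidative phosphorylation members (first panel) and of the members of complexes I to IV and ATP synthase, in CPM, in each tumour of the 5 clones. Points are tumours, treated in red left of untreated in blue, and black bars are the mean ± SD of 3 tumours. Treated 14559TN tumours lie between 9509 and 10543 CPM and treated 13TN tumours between 9560 and 10793 CPM in the first panel, below the tumours of the other groups.

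Tested gene by gene in 1 edgeR quasi-likelihood fit of the 10 groups, where a call needed an adjusted p (Benjamini-Hochberg, all 13286 genes tested) below 0.05, 40 of 91 members were called lower and 0 higher in treated 14559TN tumours. Over all genes tested, 16% were called lower and 12.4% higher in that clone, against 44.0% of the members called lower. With TMM factors the median log2 fold change of the members was -0.43, while that of all genes was within 0.04 of 0 in every comparison. The median of all genes depends on the scaling. With library totals in place of TMM factors, the medians in 14559TN were -0.35 for the members and 0.07 for all genes. Leaving out treated 14559TN replicate 3 gave 24 members called lower. DESeq2 called 35.

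In treated 13TN tumours 30 members (33.0%) were called lower and 1 higher, where 17.4% of all genes were called lower and 13.6% higher. The members' median log2 fold change was -0.30. Without untreated 13TN replicate 3, 18 members were called, all lower, and DESeq2 called 28. The tests of 14559TN and 13TN share no library, though the fit shared its estimate of spread between them. In these tests 27 members were called lower in both, which is 67.5% of those called in 14559TN and 90.0% of those called in 13TN. Of all genes called lower, 1502 were shared, which is 70.7% of those in 14559TN and 65.0% of those in 13TN. The median of the mean levels was 156 CPM for members called in 14559TN and 54.1 CPM for those not called, and 159 and 76.7 CPM in 13TN, so that counting precision was better among the called members.

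**Figure D2:**
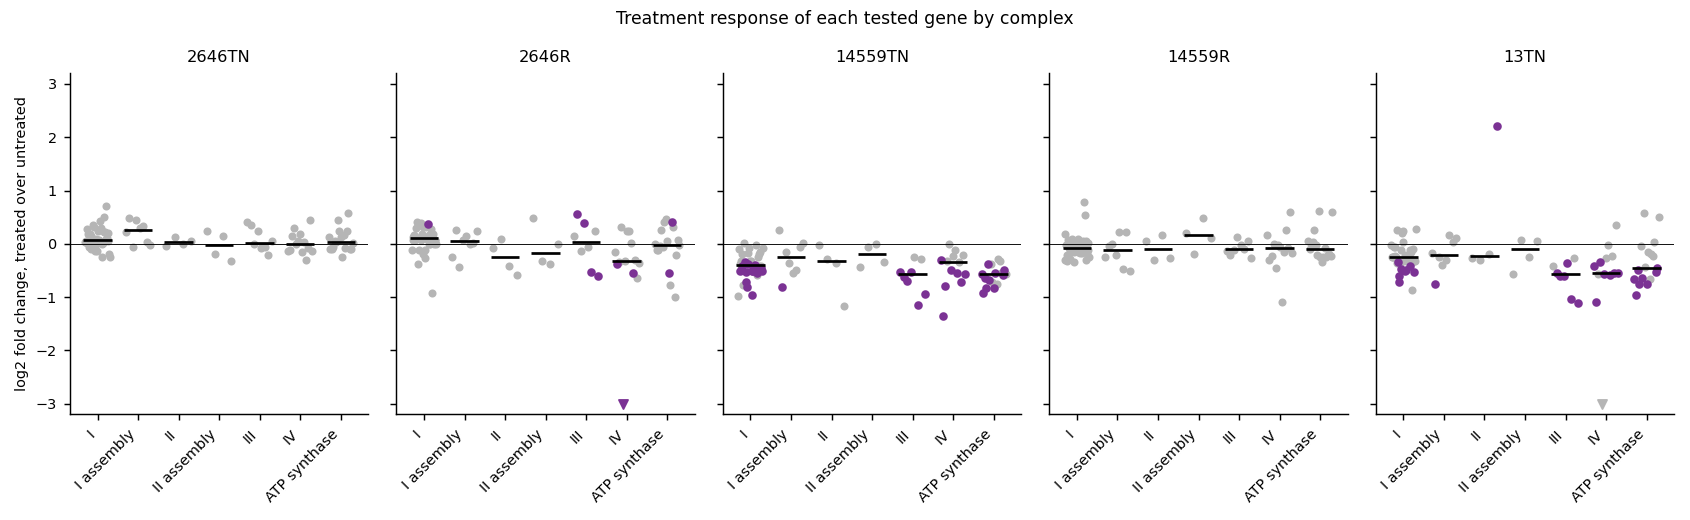
Log2 fold change, treated over untreated, of each tested member by complex in the 5 clones. Each point is a gene, purple where called and grey where not, black lines are medians, and triangles mark values beyond the axis. In 14559TN and 13TN the medians of complex III are -0.57 and -0.57, and those of ATP synthase -0.57 and -0.45.

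Complex I, the NADH dehydrogenase, had 16 of its 37 tested members called lower in 14559TN and 8 in 13TN, with median log2 fold changes of -0.40 and -0.25. Ndufb6, an accessory subunit of the membrane arm, had 37.5, 41.8 and 26.6 CPM in treated 14559TN tumours, against 82.2, 56.9 and 66.8 CPM in untreated ones. The groups did not overlap, and the log2 fold change was -0.96 ± 0.18 (SE, edgeR adjusted p = 0.000111). In 13TN it had 38.8, 48.3 and 47.3 CPM in treated tumours, against 59.6, 60.5 and 71.1 CPM in untreated ones, a log2 fold change of -0.51 ± 0.18 (edgeR adjusted p = 0.026).

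Ndufab1, the mitochondrial acyl carrier protein that is also a complex I subunit, had 26.4, 20.3 and 22.0 CPM in treated 14559TN tumours, against 43.4, 41.8 and 34.5 CPM in untreated ones. Its log2 fold change was -0.80 ± 0.20 (SE, edgeR adjusted p = 0.00296). In 13TN Ndufab1 was not called (-0.37 ± 0.20, edgeR adjusted p = 0.169), and the groups overlapped. Ndufa8 and Ndufa9, accessory subunits, were called lower in both clones, with log2 fold changes of -0.71 and -0.53 in 14559TN and -0.61 and -0.72 in 13TN. Ndufv1, which binds NADH and the flavin, had a log2 fold change of -0.45 ± 0.14 in 14559TN (SE, edgeR adjusted p = 0.0164) and was not called in 13TN (-0.33 ± 0.14, edgeR adjusted p = 0.0727). Ndufs1, the large iron-sulfur subunit that takes electrons from the flavin subunits, was not called in either: its log2 fold changes were -0.01 ± 0.14 in 14559TN and -0.24 ± 0.14 in 13TN (SE). Within complex I the members thus ranged from -0.97 to 0.02 in 14559TN. Of the 8 complex I assembly factors only Ndufaf2, which acts late in assembly, was called lower, in 14559TN (-0.81 ± 0.18, SE) and in 13TN (-0.75 ± 0.18, SE).

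Complex II, succinate dehydrogenase, which carries no mitochondrially encoded subunit, had no member called lower in either clone. Sdha, the flavoprotein that oxidises succinate, had 313, 265 and 242 CPM in treated 14559TN tumours, against 295, 282 and 251 CPM in untreated ones, and the groups overlapped. In 13TN it had 237, 244 and 265 CPM in treated tumours, against 317, 290 and 295 CPM in untreated ones. The groups did not overlap there, but the log2 fold change of -0.27 ± 0.11 (SE) missed the threshold (edgeR adjusted p = 0.0531). Sdhb, the iron-sulfur subunit, had log2 fold changes of -0.29 ± 0.17 in 14559TN and -0.31 ± 0.17 in 13TN (SE), neither called. Sdhd, a membrane anchor, was the 1 member called higher in 13TN, at 7.22, 3.86 and 2.52 CPM in treated tumours, against 1.22, 0.992 and 0.615 CPM in untreated ones. Its log2 fold change was 2.21 ± 0.73 (SE, edgeR adjusted p = 0.0195) at a level of few counts per library. None of the 4 complex II assembly factors was called in either clone. With 4 tested members each, these complex II counts are small.

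Complex III, the cytochrome bc1 complex, had 6 of 8 members called lower in each clone, with a median log2 fold change of -0.57 in both. Uqcrfs1 (ENSMUSG00000038462), the Rieske iron-sulfur protein that takes electrons from ubiquinol, had 23.6, 32.4 and 30.0 CPM in treated 14559TN tumours, against 74.1, 50.7 and 64.8 CPM in untreated ones. The log2 fold change was -1.14 ± 0.20 (SE, edgeR adjusted p = 5.71e-05). In 13TN it had 33.1, 38.8 and 41.3 CPM in treated tumours, against 56.0, 76.1 and 99.4 CPM in untreated ones, a log2 fold change of -1.03 ± 0.20 (edgeR adjusted p = 0.000133). Neither clone's groups overlapped. Uqcrq (ENSMUSG00000044894), a small subunit, had 98.8, 109 and 100 CPM in treated 14559TN tumours, against 195, 197 and 197 CPM in untreated ones. In 13TN it had 114, 97.1 and 121 CPM in treated tumours, against 222, 202 and 298 CPM in untreated ones. These are log2 fold changes of -0.93 ± 0.15 in 14559TN and -1.12 ± 0.14 in 13TN (SE, edgeR adjusted p = 8.66e-06 and 3.53e-07). Uqcrc1, a core protein, fell by 0.52 in 14559TN and by 0.60 in 13TN on the log2 scale.

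Complex IV, cytochrome c oxidase, had 7 of 13 tested members called lower in each clone. Cox5a (ENSMUSG00000000088), a subunit on the matrix side, had 87.7, 92.5 and 80.5 CPM in treated 14559TN tumours, against 225, 203 and 243 CPM in untreated ones. The groups did not overlap, and its log2 fold change of -1.36 ± 0.13 (SE, edgeR adjusted p = 1.77e-09) was the furthest from 0 among the members tested in that clone. In 13TN it had 122, 117 and 128 CPM in treated tumours, against 250, 228 and 305 CPM in untreated ones (log2 fold change -1.09 ± 0.13, edgeR adjusted p = 5.91e-08). Cox7b fell by 0.72 and 0.55 on the log2 scale in 14559TN and 13TN, Cox8a by 0.57 and 0.56, Cox7a2 by 0.55 and 0.58 and Cox6b1 by 0.49 and 0.57. Cox4i1, the widely expressed form of subunit 4, had log2 fold changes of -0.30 ± 0.12 (edgeR adjusted p = 0.0463) and -0.42 ± 0.12 (edgeR adjusted p = 0.00587) in these clones. Its 14559TN call was lost in 9 of 11 alternative settings.

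ATP synthase had 10 of 17 members called lower in 14559TN and 8 in 13TN, with median log2 fold changes of -0.57 and -0.45. Atp5b (ENSMUSG00000025393), the catalytic beta subunit, had 233, 230 and 201 CPM in treated 14559TN tumours, against 432, 384 and 438 CPM in untreated ones. In 13TN it had 272, 264 and 263 CPM in treated tumours, against 492, 479 and 591 CPM in untreated ones. The groups did not overlap in either clone, with log2 fold changes of -0.92 ± 0.12 and -0.97 ± 0.12 (SE, edgeR adjusted p = 3.21e-07 and 8.2e-08). Its partner in the catalytic head, the alpha subunit Atp5a1, fell by 0.57 ± 0.11 and 0.66 ± 0.11 on the log2 scale (SE). Atp5d and Atp5c1, of the rotating central stalk, fell by 0.82 and 0.65 in 14559TN and by 0.76 and 0.49 in 13TN. Atp5f1 and Atp5o, of the stationary peripheral stalk, fell by 0.67 and 0.50 in 14559TN and by 0.64 and 0.45 in 13TN. A further annotated entry with the symbol Atp5o overlaps the tested one on the same strand and held 0 counts. About 29.1% of the 3′ end of the tested Atp5o recurs in transcripts of another gene entry, so its value is less certain. The shares were larger for Uqcrb (40.6%), Atp5h (38.2%) and Cox6c (38.2%), which are named in other comparisons.

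**Figure D3:**
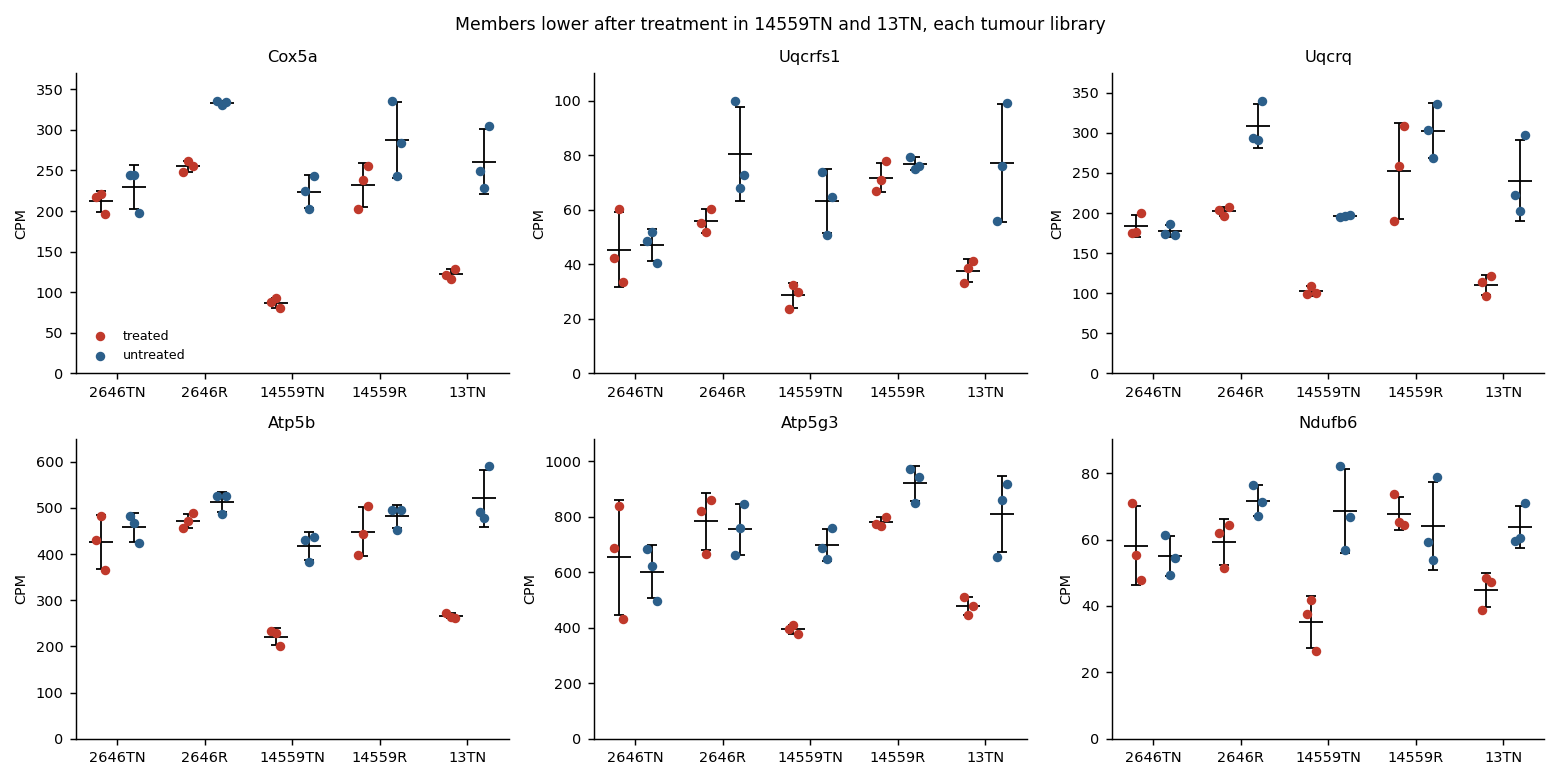
Levels of Cox5a, Uqcrfs1, Uqcrq, Atp5b, Atp5g3 and Ndufb6 in CPM in each tumour. Treated tumours are red and stand left of untreated tumours in blue, with black bars for the mean ± SD of 3 tumours. In treated 14559TN tumours Cox5a lies between 80.5 and 92.5 CPM, against 203 to 243 CPM in untreated ones.

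Several subunits exist as isoforms made by different genes, which vary by tissue or oxygen supply. The c ring of ATP synthase is built from a single mature protein encoded by Atp5g1, Atp5g2 and Atp5g3. Atp5g3 had 395, 410 and 376 CPM in treated 14559TN tumours, against 687, 648 and 758 CPM in untreated ones, and 510, 447 and 478 CPM in treated 13TN tumours, against 654, 860 and 916 CPM in untreated ones. Its log2 fold changes were -0.83 ± 0.16 and -0.76 ± 0.16 (SE, edgeR adjusted p = 0.000203 and 0.000455). Atp5g1 and Atp5g2 were called in neither clone, and 20.3% and 41.4% of their 3′ ends recur in other genes' transcripts. Cox6a1, the widely expressed partner of the muscle form Cox6a2, had log2 fold changes of -0.31 ± 0.12 (edgeR adjusted p = 0.0537) in 14559TN and -0.34 ± 0.12 (edgeR adjusted p = 0.0332) in 13TN. That last call held in only 1 of 11 alternative settings. Cox7a2l, which takes part in joining respiratory complexes to each other, was called in neither clone. The hypoxia-linked Ndufa4l2 had 27 counts in all 30 libraries and Cox4i2 had 1 count, so neither was tested. The testis-type forms Cox6b2 and Cox7b2 entered the members with 10 and 11 counts, while Cox4i2 and Cox8b, with 1 count each, stayed outside. The other members too low to test, annotated by GENCODE as processed pseudogenes, were Ndufa11b, Ndufs6b and Cox6c2, with 25, 36 and 67 counts.

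Promoters are shown for 6 members of complexes I, III and IV and ATP synthase that were called lower in both clones, since genes of this system are known targets of the factors NRF1 and GABP, the second of which binds CCGGAAG. RefSeq promoters on GRCm38.p6, 250 bases before to 50 after the start, were matched for 77 of 97 members. The NRF1 motif with its centre base left free was found on either strand in 20 members (26.0%), against 4.8% of all promoters, and CCGGAAG also in 20 members (26.0%), against 9.1%. Among the 20 matched members called lower in both clones, 4 held that motif, against 16 of the other 57. The counts for CCGGAAG were also 4 of 20 and 16 of 57. Capitals mark the NRF1 motif or CCGGAAG on either strand, and each sequence reads 5′ to 3′ along its gene.
Cox5a, chr9:57520982-57521281, plus strand: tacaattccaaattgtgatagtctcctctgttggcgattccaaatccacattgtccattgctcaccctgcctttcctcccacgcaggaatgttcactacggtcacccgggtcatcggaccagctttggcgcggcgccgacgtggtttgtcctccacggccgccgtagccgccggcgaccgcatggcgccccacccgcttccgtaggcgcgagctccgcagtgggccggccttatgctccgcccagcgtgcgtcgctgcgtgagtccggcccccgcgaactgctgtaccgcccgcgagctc
Uqcrfs1, chr13:30545267-30545566, minus strand: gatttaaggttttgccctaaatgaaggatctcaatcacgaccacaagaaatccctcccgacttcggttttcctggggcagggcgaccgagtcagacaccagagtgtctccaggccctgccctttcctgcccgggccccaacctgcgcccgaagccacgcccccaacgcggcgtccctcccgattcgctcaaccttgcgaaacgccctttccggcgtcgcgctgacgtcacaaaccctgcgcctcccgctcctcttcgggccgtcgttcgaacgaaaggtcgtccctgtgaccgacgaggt
Atp5b, chr10:128083057-128083356, plus strand: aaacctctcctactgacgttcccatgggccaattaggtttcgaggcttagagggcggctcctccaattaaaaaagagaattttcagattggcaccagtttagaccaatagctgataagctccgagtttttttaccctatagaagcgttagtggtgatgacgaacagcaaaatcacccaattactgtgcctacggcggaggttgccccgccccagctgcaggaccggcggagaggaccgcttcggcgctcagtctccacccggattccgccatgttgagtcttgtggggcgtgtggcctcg
Atp5g3, chr2:73911277-73911576, minus strand: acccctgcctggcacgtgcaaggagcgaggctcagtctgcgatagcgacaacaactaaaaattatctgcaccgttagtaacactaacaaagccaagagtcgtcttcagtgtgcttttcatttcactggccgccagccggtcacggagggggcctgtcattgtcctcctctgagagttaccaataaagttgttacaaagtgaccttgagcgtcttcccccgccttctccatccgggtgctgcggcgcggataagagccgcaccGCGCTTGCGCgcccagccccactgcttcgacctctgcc
Uqcrc1, chr9:108936398-108936697, plus strand: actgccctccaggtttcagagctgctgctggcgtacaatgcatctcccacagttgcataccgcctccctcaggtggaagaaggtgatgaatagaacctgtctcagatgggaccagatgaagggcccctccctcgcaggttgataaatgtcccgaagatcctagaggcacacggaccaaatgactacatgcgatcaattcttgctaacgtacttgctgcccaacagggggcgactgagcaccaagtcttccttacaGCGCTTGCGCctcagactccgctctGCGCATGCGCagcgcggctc
Ndufb6, chr4:40279372-40279671, minus strand: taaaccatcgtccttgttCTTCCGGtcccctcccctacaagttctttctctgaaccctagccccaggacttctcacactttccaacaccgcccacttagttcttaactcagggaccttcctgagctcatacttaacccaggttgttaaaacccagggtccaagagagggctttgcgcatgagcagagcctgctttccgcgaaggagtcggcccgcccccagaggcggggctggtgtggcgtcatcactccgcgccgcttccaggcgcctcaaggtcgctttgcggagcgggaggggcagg

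The sequences of Cox5a, Uqcrfs1 and Atp5b hold no capitals: these letters are not in those windows. Atp5g3 holds 1 match to the NRF1 motif, Uqcrc1 holds 2, of which 1 is the strict palindrome, and Ndufb6 holds 1 CCGGAAG on the reverse strand. Cox5a, Uqcrfs1, Atp5b and Atp5g3 were shown for the deepest falls among matched members. Uqcrc1 and Ndufb6 were added because they hold the strict palindrome and CCGGAAG, so those matches followed from the choice. The strict palindrome was in 1 of the 20 shared members and 6 of the other 57. A match is a description of letters and not a site of binding. The shorter CCAAT box was in 8 of the 20 shared members (40.0%), 26 of the other 57 (45.6%) and 37.9% of all promoters.

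In 2646TN 0 members were called, where 1.69% of all genes were called higher and 2.24% lower. At an unadjusted p under 0.05 in edgeR, 8 members were higher and 0 lower, and DESeq2 called 0. Cox5a had 218, 221 and 197 CPM in treated 2646TN tumours, against 245, 245 and 198 CPM in untreated ones, which overlapped. In 14559R 0 members were called, with 0.143% of all genes called higher and 0.0527% lower in that clone. At an unadjusted p under 0.05 in edgeR, 2 members were higher and 4 lower, and DESeq2 called 0. Cox5a had 202, 238 and 255 CPM in treated 14559R tumours, against 336, 243 and 284 CPM in untreated ones (log2 fold change -0.31 ± 0.13, edgeR adjusted p = 0.348).

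In treated 2646R tumours, 4 members were called higher (4.4%) and 6 lower (6.59%), below the 9.7% and 10.2% of all genes. The members called lower included Uqcrq, at 204, 196 and 207 CPM in treated tumours, against 294, 291 and 340 CPM in untreated ones (log2 fold change -0.61 ± 0.14, edgeR adjusted p = 0.00224). Cox5a had 248, 262 and 256 CPM in treated 2646R tumours, against 336, 330 and 334 CPM in untreated ones (-0.39 ± 0.13, edgeR adjusted p = 0.0269). Neither gene's groups overlapped. Cox7a2l and Atp5h fell by 0.55 and 0.54 on the log2 scale, calls lost in 3 and 4 of 11 alternative settings. Uqcrfs1 fell by 0.53, a call held in 2 of 11 alternative settings. The members called higher were Uqcr11 (0.56), a complex III subunit, Atp5j2 (0.41) of the ATP synthase membrane part, Uqcrc1 (0.39) and Ndufc1 (0.37). The last 2 calls held in 6 and 5 of 11 alternative settings. Treated 2646R replicates 1 and 2 and untreated 2646R replicate 1, left out 1 at a time, gave 6, 5 and 6 calls in place of 10.

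The muscle isoform Cox6a2 was detected mainly in untreated 2646R tumours, at 6.48, 4.73 and 5.74 CPM. Treated 2646R tumours held 0.434, 0 and 0 CPM, or 2 counts against 74, a ratio of 0.0273 with a 95% counting interval of 0.00325 to 0.102 (edgeR adjusted p = 0.00539). Untreated 2646TN tumours held 0 counts, so untreated 2646R was at least 22.1-fold higher, with a floor of 3 counts over the group (edgeR adjusted p = 0.000998). Both calls held in 10 of 11 alternative settings. Summed skeletal muscle markers were 6.56 to 9.23 CPM in untreated 2646R tumours, against 7.31 to 12.1 CPM in untreated 2646TN ones, and Ckm, Mb and Casq1 were at 0 in the untreated 2646R group. Treated 2646R tumours held 11.4 to 15.0 CPM of these markers. The heart and muscle isoform Cox7a1 lay between 0 and 4.06 CPM in every tumour and was called in no response.

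**Figure D4:**
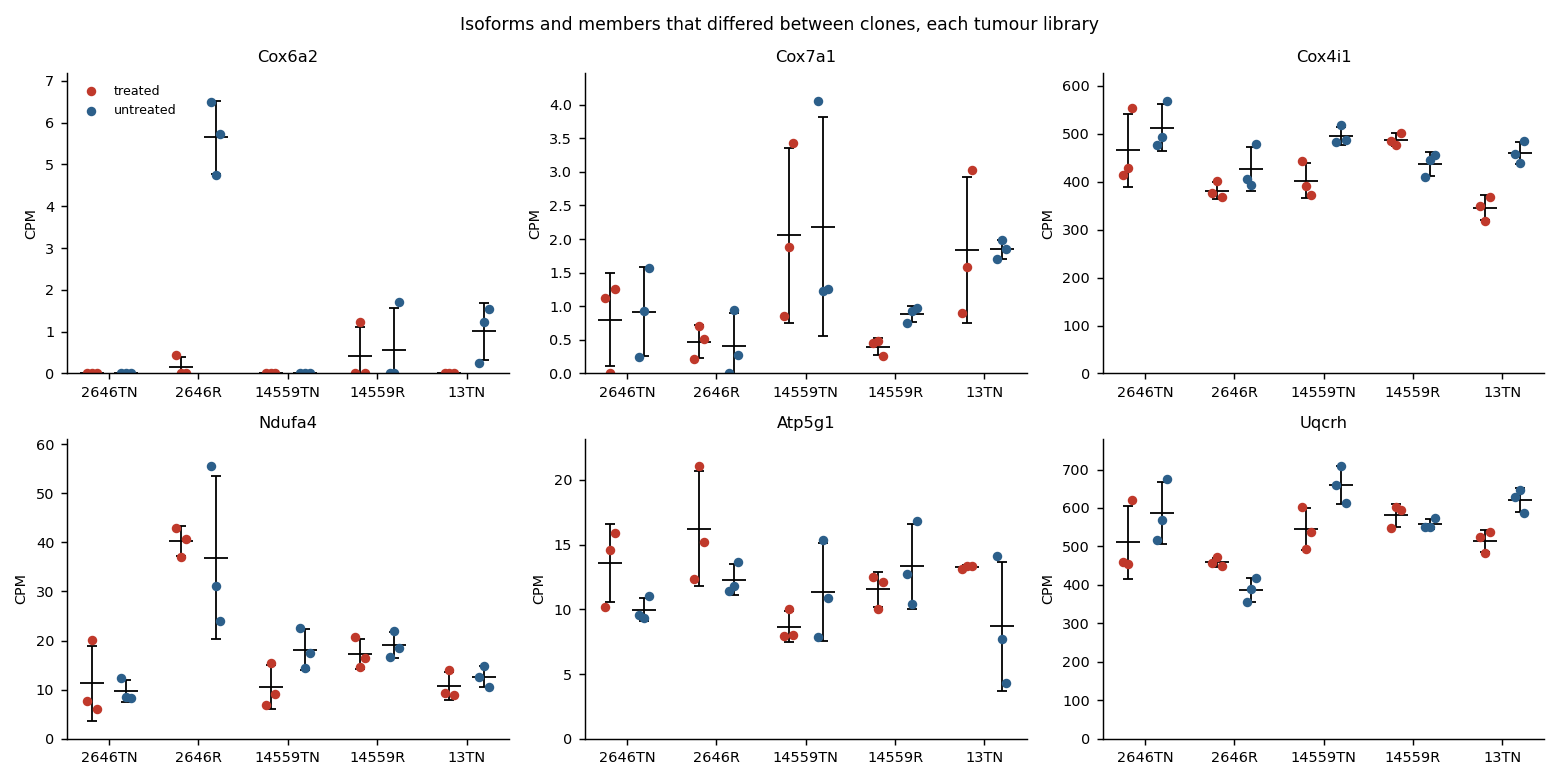
Levels of Cox6a2, Cox7a1, Cox4i1, Ndufa4, Atp5g1 and Uqcrh in CPM in each tumour. Treated tumours are red and stand left of untreated tumours in blue, with black bars for the mean ± SD of 3 tumours. Cox6a2 reaches 4.73 to 6.48 CPM in untreated 2646R tumours, and Ndufa4 reaches 24.0 to 55.6 CPM there.

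The responses of paired clones were then set against each other with a test of the difference itself. For 14559R minus 14559TN, 16 members (17.6%) had a higher and 0 a lower response difference, where 7.93% and 4.08% of all genes did. They were 6 ATP synthase genes, 4 complex I genes, 3 complex III genes, 2 complex IV genes and the assembly factor Ndufaf2. Cox5a had a difference of 1.05 ± 0.18 (SE, edgeR adjusted p = 0.000135), Atp5b of 0.81 ± 0.16 (edgeR adjusted p = 0.000813), Atp5d of 0.86 ± 0.19 and Uqcrfs1 of 1.04 ± 0.28 on the log2 scale. The count was 7 without untreated 14559R replicate 2, 9 without untreated 14559TN replicate 3 and 10 without treated 14559TN replicate 3. It was 8 with library totals in place of TMM factors and 10 with no filter on low counts, all of them higher. For 2646R minus 2646TN, 0 members were called, where 2.36% of all genes had a higher and 1.78% a lower difference. At an unadjusted p under 0.05 in edgeR, 3 members were higher and 3 lower, and DESeq2 called 1.

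Between the TN clones of both pairs, 14559TN minus 2646TN, 28 members (30.8%) had a lower and 0 a higher response difference, where 8.87% and 5.19% of all genes did. Complex III gave 6 of its 8 members, ATP synthase 7 of 17, complex I 9 of 37, complex IV 4 of 13 and complex II 0 of 4. Ndufaf2 (-1.30 ± 0.25), Cox5a (-1.25 ± 0.18), Ndufab1 (-1.11 ± 0.28), Uqcrfs1 (-1.08 ± 0.28) and Ndufb6 (-1.03 ± 0.25) had the lowest log2 differences among the called members (SE). The uncalled response of 2646TN and the called response of 14559TN thus differed by a test of their own for these genes. No such test was made against 13TN.

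Levels in R clones were next compared with those in their TN partners. In treated tumours 14559R was higher than 14559TN in 44 members (48.4%) and lower in 2 (2.2%), where 26.6% of all genes were higher and 22.7% lower. The summed level was 1.35 times that of 14559TN. The same treated 14559TN tumours entered the response of 14559TN, the response differences that involve 14559TN and this comparison. These results are therefore not independent of each other. The higher members were 17 of 37 in complex I, 5 of 8 in complex III, 7 of 13 in complex IV, 10 of 17 in ATP synthase and 1 of 4 in complex II, plus 2 assembly factors each of complexes I and II. Cox5a averaged 232 ± 27.2 CPM in treated 14559R tumours and 86.9 ± 6.04 CPM in treated 14559TN tumours (SD, n = 3 each), and Uqcrfs1 71.9 ± 5.42 and 28.6 ± 4.56 CPM. The log2 fold changes were 1.41 ± 0.13 and 1.32 ± 0.20 (SE, edgeR adjusted p = 2.59e-10 and 2.38e-06). Uqcrq (1.30), Uqcrb (1.09) and Atp5b (1.02) were also higher. Ndufa1 (1.06) was called in 4 of 11 alternative settings. Cox7a1 was lower, with 0.398 CPM on average in treated 14559R tumours and 2.05 CPM in treated 14559TN tumours (log2 fold change -2.27 ± 0.88, edgeR adjusted p = 0.0324), a call lost in 6 of 10 alternative settings. Summed skeletal muscle markers were 4.55 to 6.58 CPM in treated 14559R tumours and 18.6 to 34.3 CPM in treated 14559TN tumours, and their part in the Cox7a1 result was not tested. Ndufaf8, an assembly factor, fell by 0.46.

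With library totals in place of TMM factors, the median of all genes in that comparison moved to -0.11, that of the members to 0.29, and 24 members were called higher and 3 lower. The members' median stood 0.40 above that of all genes with totals and 0.41 with TMM. Without treated 14559TN replicate 3, 26 members were called higher and 1 lower.

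In untreated tumours of this pair, 5 members were called higher (5.49%) and 0 lower in 14559R, where 12.9% of all genes were higher and 11.2% lower. They were Uqcrq, at 304, 268 and 336 CPM in untreated 14559R tumours, against 195, 197 and 197 CPM in untreated 14559TN tumours (log2 fold change 0.62 ± 0.14, edgeR adjusted p = 0.00141), and Uqcrb (0.50), Sdhb (0.48), Cox5a (0.36) and Ndufa10 (0.29). With library totals the split was 2 higher and 2 lower. Only 1 or 2 members stayed called when 14559TN replicate 1 or 2 or 14559R replicate 1 or 3 of the untreated groups was left out.

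In untreated 2646R tumours 15 members (16.5%) were higher and 13 (14.3%) lower than in untreated 2646TN tumours, near the 18.3% and 18.4% of all genes. With library totals the split was 14 higher and 19 lower. Without untreated 2646TN replicate 3, 12 were higher and 6 lower. Ndufa4 had 55.6, 31.0 and 24.0 CPM in untreated 2646R tumours, against 12.3, 8.42 and 8.32 CPM in untreated 2646TN ones. The groups did not overlap, and the log2 fold change was 1.93 ± 0.34 (SE, edgeR adjusted p = 4.31e-05). Sdhaf3 (1.32), a complex II assembly factor, Atp5j (1.26), of the peripheral stalk, Ndufaf2 (0.87), Uqcrq (0.80) and Uqcrfs1 (0.78) were higher too, and the Atp5j call held in 8 of 11 alternative settings. Uqcrh, the acidic hinge protein of complex III, had 355, 388 and 418 CPM in untreated 2646R tumours, against 517, 569 and 676 CPM in untreated 2646TN ones (-0.60 ± 0.12, edgeR adjusted p = 0.000188). Ndufa3 (-0.59), Ndufb11 (-0.55), Ndufaf8 (-0.53) and Cox7a2 (-0.50) were lower as well. Complex III thus held members on both sides, with Uqcrq and Uqcrfs1 higher and Uqcrh and Uqcrc1 lower.

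Among treated tumours of the same pair, 4 members were higher (4.4%) and 6 lower (6.59%) in 2646R, where 10% of all genes were higher and 10.1% lower. Ndufa4 had 43.0, 37.0 and 40.7 CPM in treated 2646R tumours, against 7.62, 20.1 and 6.06 CPM in treated 2646TN tumours (log2 fold change 1.86 ± 0.34, edgeR adjusted p = 0.000162). Thus Ndufa4 was called higher in 2646R with and without treatment. Cox6c (0.60), Ndufaf2 (0.64) and Ndufa6 (0.46) were the other members called higher. The lower ones were the assembly factors Ndufaf1 (-1.08) and Ndufaf3 (-0.65), Cox7a2 (-0.52) and the complex I subunits Ndufa13 (-0.55), Ndufs8 (-0.50) and Ndufs7 (-0.43). The Ndufaf3 call was lost in 6 alternative settings, and the calls of Ndufaf1, Ndufs8 and Ndufa6 in 4 each. Leaving out treated 2646TN replicate 3 gave 4 calls in place of 10.

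**Figure D5:**
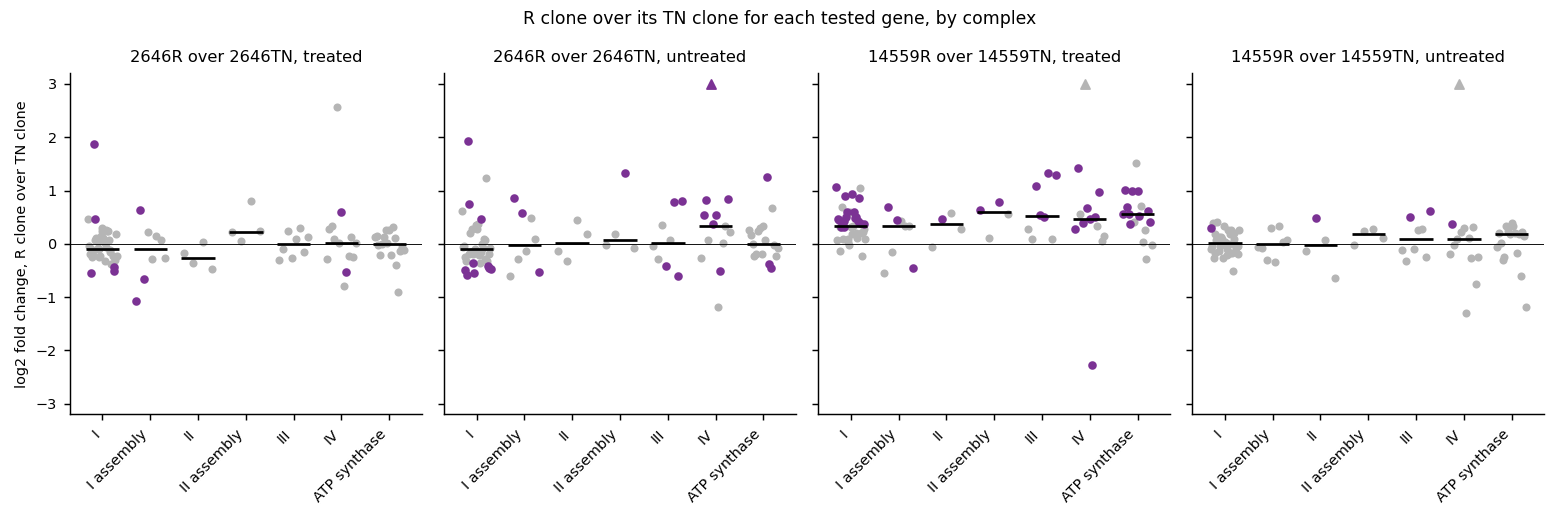
Log2 fold change of R over TN for each tested member by complex, in both pairs, treated and untreated. Each point is a gene, purple where called and grey where not, black lines are medians, and triangles mark values beyond the axis. In treated 14559R against 14559TN the medians of complexes I, III and IV and ATP synthase are 0.34, 0.52, 0.47 and 0.56.

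A joint test of the 5 untreated clones called 39 members (42.9%), where 56.6% of all genes were called. Uqcrq averaged 178 CPM in 2646TN, 309 in 2646R, 196 in 14559TN, 303 in 14559R and 241 in 13TN (edgeR adjusted p = 1.73e-05). Uqcrh ran the other way in 2646R, with 587, 387, 660, 558 and 621 CPM in the same order of clones (edgeR adjusted p = 2.98e-05). Ndufa4 averaged 9.69, 36.9, 18.1, 19.1 and 12.7 CPM (edgeR adjusted p = 9.56e-05), Ndufa6 201, 335, 231, 247 and 191 CPM (edgeR adjusted p = 0.000123) and Cox8a 356, 417, 286, 241 and 428 CPM (edgeR adjusted p = 0.000239). By complex, 14 of 37 tested complex I members, 6 of 8 in complex III, 7 of 13 in complex IV and 4 of 17 in ATP synthase were called. Across all 10 groups, treated 14559TN had the lowest mean of 44 of the 91 tested members and treated 13TN of 21.

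Other genes of mitochondrial metabolism were counted in the same fit. Over all genes tested, 16% were called lower and 12.4% higher in 14559TN, and 17.4% lower and 13.6% higher in 13TN. In treated 14559TN tumours 5 of 16 tricarboxylic acid cycle genes were lower and 0 higher, among them Cs, citrate synthase (33.5 ± 11.0 CPM in treated and 65.8 ± 7.0 CPM in untreated tumours, SD, n = 3 each), Idh3a and Mdh2. In treated 13TN tumours 4 of 16 were lower, among them Idh3a, Mdh2 and Dlst. Of 17 electron carriers and nucleotide exchangers, 6 were lower in each clone. Vdac1, an outer membrane channel, fell by 0.89 in 14559TN on the log2 scale, and Cycs, cytochrome c, fell by 0.88 in 14559TN and by 0.80 in 13TN. Of 33 assembly factors outside the members, 2 were lower and 1 higher in 14559TN and 1 was lower in 13TN, and Uqcc2, which acts in complex III assembly, was lower in both (-0.96 and -0.62). Mitochondrial ribosomal proteins were lower for 32 of 74 in 14559TN and 29 of 74 in 13TN, and cytosolic ribosomal proteins for 47 and 43 of 78, with 0 higher.

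Subunits encoded by mitochondrial DNA were measured for 7 of 13 genes; mt-Co2, mt-Co3, mt-Atp6, mt-Atp8 and mt-Nd4l were listed at 0. In treated 14559TN tumours mt-Nd5, mt-Nd2 and mt-Nd1 were lower, with log2 fold changes of -1.23, -0.88 and -0.82. In treated 13TN tumours mt-Nd2 was higher (0.90) and no other was called. Glycolysis and hypoxia genes were lower for 16 of 23 in 14559TN, with 1 higher, and for 16 of 23 in 13TN. They were also lower for 14 of 23 in 2646TN and 21 of 23 in 2646R, where 0 and 6 members were called lower. Over all genes tested, 2.24% were called lower in 2646TN and 10.2% in 2646R. In treated 14559R against treated 14559TN tumours, 23 of 23 of these genes, 11 of 16 tricarboxylic acid cycle genes, 45 of 74 mitochondrial and 54 of 78 cytosolic ribosomal proteins were higher. Of 17 tested biogenesis regulators in that comparison, 5 were higher, among them Pprc1 (1.66) and Myc (3.87), and 1, Ppargc1b (-1.99), was lower; 26.6% of all genes were higher there.

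Other measures were also set out for treated and untreated tumours, each for some of the clones only. The nuclear RNA Malat1 took 1.76% to 2.40% of counts in treated 14559TN tumours, against 1.21% to 1.33% in untreated ones, and 2.71% to 3.50% in treated 13TN tumours, against 1.22% to 1.32% in untreated ones. In treated 2646TN tumours it took 1.16% to 1.83%, against 1.47% to 2.20% in untreated ones. Endothelial markers, 9 of 10 detected, summed to 212 to 246 CPM in treated 14559TN tumours, against 119 to 130 CPM in untreated ones. In 13TN they summed to 349 to 435 CPM in treated tumours, against 92.3 to 170 CPM in untreated ones. Fibroblast markers summed to 10662 to 16916 CPM in treated 14559TN tumours, against 9237 to 10142 CPM in untreated ones, and to 8987 to 10009 CPM in treated 13TN tumours, against 4351 to 5338 CPM in untreated ones. Fibroblast markers also summed to 14789 to 16835 CPM in treated 2646R tumours, against 6296 to 7665 CPM in untreated ones. In that clone the ratio of treated to untreated means of the summed members was 1.01. Skeletal muscle markers summed to 18.6 to 34.3 CPM in treated 14559TN tumours, against 8.07 to 14.1 CPM in untreated ones. Macrophage markers, 14 of 15 detected in treated and 15 in untreated 14559TN tumours, summed to 106 to 198 CPM in treated ones, against 26.1 to 111 CPM in untreated ones. The part of these measures in the lower levels of the members was not tested.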

How the data were processed

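Messenger RNA was measured in 30 tumours with Lexogen QuantSeq 3′ libraries, per the labels' protocols. The submitters' processing notes name STAR 2.6.0c and GRCm38; per the file headers, the deposited counts are whole reads per gene from featureCounts 1.6.2 without counting multi-mapping reads. Reads that match several genes are therefore lost, and 5 members (Cox7c, Atp5l, Ndufs5, Ndufs3 and Cox6c2) share at least 50% of the 50-base words of their last 300 transcript bases with other genes. Symbols came from GENCODE vM21.

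Counts were tested in R 4.3.3 with edgeR 4.0.16: filterByExpr by group, TMM, 1 robust quasi-likelihood fit of 10 groups with 20 residual degrees of freedom, and Benjamini-Hochberg adjustment over 13286 genes. Contrasts of that fit gave 5 responses, 4 comparisons of R with TN, 3 response differences and 1 joint test. SE was the size of the log2 fold change divided by the root of its F value. Alternatives were DESeq2 1.42.0, other scalings, no filter, separate fits and leaving out each library. Replicate pairs differed by more than counting error (chi-square per degree of freedom 3.39 to 18.7), and intervals and floors cover counting error only.

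Members and gene lists were chosen with earlier results of these data known, so no list is independent support for its direction. Named were, per comparison, up to 5 members called per direction with the largest log2 fold change and at least 5 CPM in the higher group, the cofactor- or substrate-binding subunits, the isoforms, and up to 3 genes per other list; further members are described by complex after their values were seen. A member that the rule would name is counted but not reported by name here. A fold against a group at 0 counts uses a floor of 3 counts over the group.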

Additional observations from a re-analysis of the deposited data

Results flagged for a closer look

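Responses to RAFi/MEKi that differed between clones by edgeR's test of the difference itself are listed here as values. Between 14559R and 14559TN, 16 members had a called difference, all of them higher in 14559R. The named ones on the log2 scale were Ndufs3 at 1.37 ± 0.47 (SE, edgeR adjusted p = 0.0494), Cox5a at 1.05, Uqcrfs1 at 1.04, Ndufb6 at 1.04, Atp5d at 0.86, Atp5b at 0.81, Uqcrc1 at 0.65 and Atp5a1 at 0.62. For Ndufs3, 53.0% of the words of its 3′ end recur in another gene, and its call held in 4 of 17 alternative settings. The call for Uqcrc1 held in 9 of 17.

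Between 14559TN and 2646TN, 28 members had a called difference, all of them lower in 14559TN. The named ones were Ndufaf2 at -1.30, Cox5a at -1.25, Ndufab1 at -1.11, Uqcrfs1 at -1.08, Ndufb6 at -1.03, Atp5g3 at -0.95, Atp5b at -0.81, Uqcrc1 at -0.76, Atp5a1 at -0.70, Ndufv1 at -0.65, Cox6a1 at -0.60 and Cox7a2 at -0.58. The calls for Ndufv1, Cox6a1 and Cox7a2 held in 8, 12 and 8 of 17 alternative settings.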

How the results depend on the processing

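No paired analysis was possible because the labels name no pairing and each tumour has its own code. Of 3619 values of named members recomputed under the alternatives, 3393 kept their side of the threshold, 196 lost the call and 30 gained it. The sign differed from the reported one in 227, of which 0 were called under either setting. Counts of called members that moved by over 1.5 times were as follows. With library totals only, 14559R against 14559TN treated gave 27 and its response difference 8. With no filter on low counts, 14559R against 14559TN untreated gave 2 and the response difference of that pair 10. Fitting only the groups compared gave 6 for 2646R against 2646TN treated and 12 for 14559R against 14559TN untreated. DESeq2 gave 1 for the response difference of 2646R and 2646TN.

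Leaving out 1 library at a time, the counts ran from 24 to 37 for the response of 14559TN, 18 to 29 for 13TN and 5 to 14 for 2646R, and stayed at 0 for 2646TN and 14559R. They ran from 18 to 32 for 2646R against 2646TN untreated, 4 to 11 treated, 1 to 5 for 14559R against 14559TN untreated and 27 to 38 treated. The response differences gave 0 to 2 for 2646R minus 2646TN, 7 to 15 for 14559R minus 14559TN and 19 to 27 for 14559TN minus 2646TN, and the joint test 30 to 40. The cause was not tested; a fit without a library also has fewer tumours.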

Other observations

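Ndufb1-ps, annotated by GENCODE as a non-coding RNA and in RefSeq as the protein-coding Ndufb1, and left out of the members by its ending, had 10505 counts and was called higher in untreated 2646R than in untreated 2646TN tumours (log2 fold change 1.07 ± 0.37, SE, edgeR adjusted p = 0.0251) and in treated 14559R than in treated 14559TN tumours (1.21 ± 0.37, edgeR adjusted p = 0.0103). It was called in no response, with -0.56 in 14559TN and -0.45 in 13TN.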
